A study of Homo sapiens with 2 samples.

Results

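Promoter-promoter interactions are the HiChIP contacts in which both ends lie at gene starts. They were chosen as the listed interactions whose 2 bins of 5 kb each hold at least 1 transcription start site of a protein-coding transcript (GENCODE release 44, hg38), with no gene in common between the bins. This rule found 501 of 49245 listed interactions (1.02%; Wilson 95% interval, 0.932 to 1.11). Another 7432 interactions (15.1%) had a start site in 1 bin only, 41268 (83.8%) had none, and 44 had start sites of the same gene in both bins and were not counted. The 501 interactions joined 840 distinct bins that hold start sites of 905 protein-coding genes.

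The contacts were measured in HAL-01, an established human leukemia line that carries t(17;19), the translocation that fuses TCF3 to HLF. The cells stably expressed Cas9GFP, and an sgRNA had removed wild-type TCF3 (TCF3_KO), with the knockout line grown out from clonal colonies. An E2A antibody, which recognizes TCF3, therefore pulled down the TCF3::HLF fusion. All samples were of this single condition, without an untreated or unfused counterpart, and the 2 biological replicates had been merged before interactions were called, so none of the values below has a replicate error and no comparison between conditions could be made.

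HiChIP joins DNA ends that lie close together in the nucleus and then keeps those bound by a chosen protein, so a read pair links the binding site to the place it touches. The HLF portion of the fusion binds DNA as a basic leucine zipper (bZIP) dimer, at palindrome-like motifs. Promoters touch each other in many cell types, often within gene-rich stretches where several active genes gather.

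The HLF motif was searched here as TTACGTAA or TTATGTAA on either strand. In core promoters (250 bases before to 50 bases after the RefSeq start, GRCh38.p14) it was rare. Of 15277 protein-coding genes with such a sequence, 114 (0.746%) had the motif. Where the start lay in a bin of a promoter-promoter interaction, 11 of 470 core promoters had it (2.34%; 1.31 to 4.14). Where the start lay in a bin with other listed interactions only, 15 of 1597 had it (0.939%; 0.570 to 1.54), and where it lay in no listed bin, 88 of 13210 (0.666%; 0.541 to 0.820). The interval of the promoter-promoter group did not overlap that of unlisted promoters, and it overlapped that of the other listed ones. Interactions are listed only where the caller finds a TCF3::HLF peak in a bin, so listing and the motif were not independent. The parts of peaks and of G+C content in these shares were not tested, and this set was chosen after its values were seen. The palindrome TTACGTAA was in 4 of the 470 (0.851%; 0.331 to 2.17), against 23 of all 15277 (0.151%).

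The motifs of these 11 core promoters are shown first, because each is a motif match at a gene start whose bin also contacts another gene start. Whether the fusion occupied these motifs was not tested. Each window has 30 bases of hg38, 5′ to 3′ on the strand named, with the HLF motif in capitals.
ABHD11, chr7:73738991-73739020, plus strand: cccttacgccaTTACGTAAtccccgcaggc
DUXA, chr19:57167544-57167573, minus strand: gaactagagatTTATGTAAatggtttaaaa
EHD1, chr11:64879726-64879755, plus strand: gggactgattgTTATGTAAccagtatcaag
IRF2BP1, chr19:45886156-45886185, minus strand: ttgcaggcgtgTTATGTAActttccctgcg
MNDA, chr1:158831307-158831336, minus strand: ctagaaagaagTTATGTAAtcatgaaacaa
MYBPHL, chr1:109307090-109307119, plus strand: cagccacagggTTACGTAActgggctggcc
MYRFL, chr12:69825165-69825194, plus strand: ttattgcccatTTATGTAAttgcatgtgtc
OSER1, chr20:44210967-44210996, plus strand: gcacgtgcgccTTACGTAAtttcctgttat
PLEKHJ1, chr19:2236466-2236495, minus strand: cagtttaatggTTATGTAAcaacggtccgt
SEC62, chr3:169966722-169966751, minus strand: cccgaggcccgTTATGTAAtccgccggctg
TOPORS, chr9:32552636-32552665, plus strand: tcttccgcttcTTACGTAAgggctgctggg
The sequences flanking the motif differed from gene to gene, and in all 11 the motif began upstream of the RefSeq start. The distance was 33 bases for MNDA and IRF2BP1, 51 for EHD1 and MYRFL, 68 for TOPORS, 74 for SEC62, 77 for DUXA, 97 for MYBPHL, 155 for PLEKHJ1, 207 for ABHD11 and 214 for OSER1. In GENCODE, the motif of PLEKHJ1, that of SEC62 and that of TOPORS (where it falls in SMIM27, whose start lies in the same bin) overlapped an exon of a protein-coding gene. That of EHD1 lay in an EHD1 intron and that of MYRFL in an intron of another protein-coding gene, ENSG00000258052. The other 6 lay outside protein-coding genes.

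These 11 gene starts differed widely in the number of contacts. The OSER1 bin took part in 28 listed interactions, of which 3 reached start sites of PKIG, an inhibitor of protein kinase A, at 320, 370 and 400 kb with contact counts of 17, 32 and 29. The MNDA bin took part in 13 listed interactions. MNDA encodes a nuclear antigen of myeloid cells in the interferon-inducible IFI16 family, and its 4 promoter partners were IFI16 itself (contact count 23, 175 kb) and the olfactory receptor genes OR6N2 (25, 50 kb), OR6P1 (26, 260 kb) and OR6Y1 (18, 280 kb). MYBPHL, with 12 listed interactions, reached SORT1, the sorting receptor sortilin, with a contact count of 18 at 90 kb. SEC62, a subunit of the endoplasmic reticulum translocon with 11 listed interactions, reached PHC3, a Polycomb protein, with 35 at 160 kb. The bin of TOPORS, a ubiquitin and SUMO ligase, reached UBE2R2, a ubiquitin-conjugating enzyme, across 1265 kb with a contact count of 20. By contrast, the DUXA bin and the MYRFL bin were each in 1 listed interaction only, the promoter-promoter one.

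Both bins had an HLF motif anywhere in their 5 kb in 46 of the 501 interactions (9.18%; 6.95 to 12.03). This share was lower than in the rest of the list, with 14.5% (13.8 to 15.4) with 1 promoter bin and 16.6% (16.2 to 16.9) with none. Over all listed interactions it was 16.2%. The median G+C content of the bins was 48.3% in promoter-promoter interactions, 44.1% with 1 promoter bin and 40.8% with none. The part of base composition in these shares was not tested. Shown are the motif windows of the 6 with the largest contact counts among the 46. They give both ends of a contact in which each side carries a match to the HLF motif, and occupancy of these motifs was not tested. They belong to ISY1 and COPG1, IL17RD and DNAH12, RDX and FDX1, CPB1 and TM4SF4, PALM and TMEM259, and KCTD21 and NARS2, in this order, and each is named by its nearest start site.
ISY1, chr3:129163187-129163216, plus strand: tatgtgaagatTTATGTAAaattgtttagg
COPG1, chr3:129245647-129245676, plus strand: ttttacaagtaTTATGTAAcagtgggtgct
IL17RD, chr3:57174954-57174983, plus strand: gctggctgccaTTATGTAAtgtctcacagt
DNAH12, chr3:57358654-57358683, plus strand: ttaatgacatcTTATGTAAgaaagcataat
RDX, chr11:110298069-110298098, plus strand: tagtcaaagtaTTACGTAAtacttcccatg
RDX, chr11:110298110-110298139, plus strand: aaaaaaaagtaTTATGTAAattcctacata
FDX1, chr11:110427377-110427406, plus strand: cctatgctatcTTACGTAAaaatgtagatt
CPB1, chr3:148826079-148826108, minus strand: gtttggggtctTTATGTAAgatatgagtct
TM4SF4, chr3:149473771-149473800, plus strand: tccttcagctgTTATGTAAtaccagtacca
PALM, chr19:717639-717668, minus strand: acgacttacacTTATGTAAagtaggacccg
TMEM259, chr19:1022836-1022865, plus strand: gaatttgaatgTTATGTAAtttccacgttt
KCTD21, chr11:78185275-78185304, plus strand: actttaagcttTTATGTAAgcttgaaaatt
NARS2, chr11:78572588-78572617, plus strand: aaccttctcagTTACGTAActtcctgtttt
Of these 13 motifs, 11 lay upstream of the nearest start site, at distances from 912 bases (TM4SF4) to 4662 bases (IL17RD), and those of KCTD21 and NARS2 lay 3299 and 928 bases downstream. They were intronic at DNAH12, CPB1, PALM, KCTD21 and NARS2 and outside protein-coding genes at the rest. The RDX bin had a pair of motifs, 1371 and 1412 bases upstream of the start, of which the nearer was the palindrome, and its partner, the FDX1 bin, had the palindrome as well. RDX encodes radixin, which links actin to the membrane, and FDX1 encodes a mitochondrial ferredoxin. Their bins were 130 kb apart with a contact count of 42. The largest contact count of this set, 51 at 85 kb, joined ISY1, a spliceosome protein gene, to COPG1, a coatomer subunit gene. Contact counts were compared by the number of bins with a motif. The median contact count was 23 (20 to 30) with motifs in both bins, 24 (23 to 25) with a motif in 1 bin and 24.5 (23 to 27) with none, and relative to all listed interactions at the same distance the medians were 0.978, 1 and 1.04. A contact count of 40 or more was seen in 6 of 46, 25 of 227 and 20 of 228, respectively. The intervals of the medians overlapped, and the order of the medians was not that of the large counts.

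The contact count is the number of read pairs that join the 2 bins, not normalized. It ranged from 11 to 77 in the promoter-promoter interactions, with a median of 24 (23 to 25). The median was also 24 in interactions with 1 promoter bin and in those with none, although their largest counts were 235 and 615. A count of 24 has an exact Poisson 95% interval from 15.4 to 35.7. This and all other intervals given here cover counting error only, and copies of a read pair had not been removed. Together the 501 interactions held 13186 of the 1268490 read pairs in the list. Because counts fell with distance, each was also divided by the median of all listed interactions at the same distance. The median of this ratio was 1 (0.958 to 1.04), with a range from 0.407 to 3.08, and 18 of 501 (3.59%) reached 2. A contact count of at least 40 was seen in 10.2% (7.83 to 13.1) of the promoter-promoter interactions, in 8.48% (7.86 to 9.13) of those with 1 promoter bin and in 7.27% (7.02 to 7.52) of those with none.

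**Figure D1:**
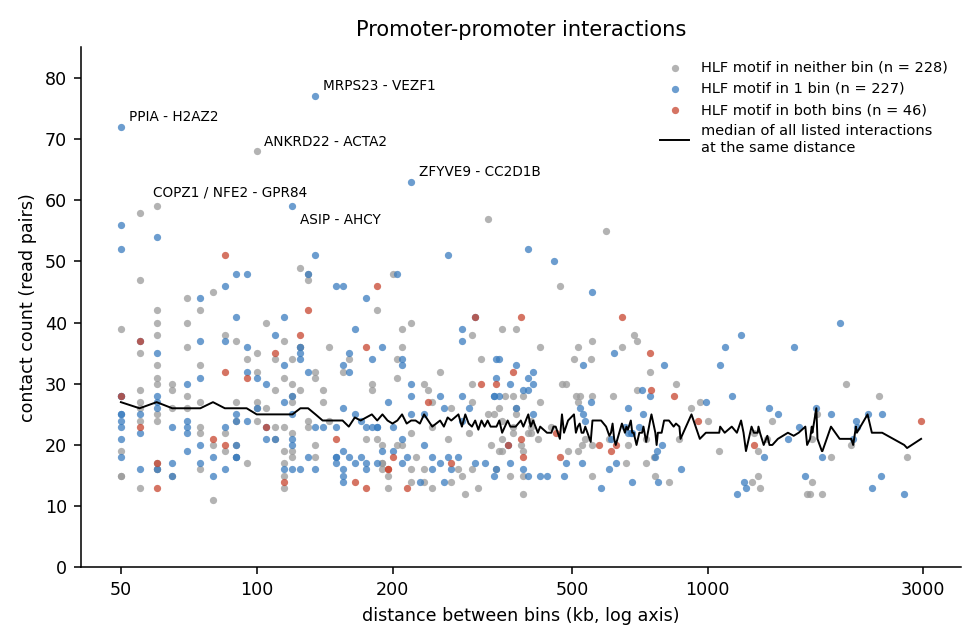
Contact count (read pairs) of each of the 501 promoter-promoter interactions against the distance between its bins (kb, log axis), coloured by whether neither, 1 or both bins held an HLF motif. The black line is the median of all listed interactions at the same distance. Points of all 3 colours lie on both sides of the line, and the 6 with the largest counts, from 59 to 77, are named.

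The largest count joined the start of MRPS23, a protein of the small mitochondrial ribosome subunit, to that of VEZF1, a zinc finger transcription factor, on chromosome 17 (57850001 to 57855000 and 57985001 to 57990000). It was 77 (Poisson interval, 60.8 to 96.2) at 135 kb, against a median of 25 for all listed interactions at this distance. The neighboring bin pairs merged with it brought its summed contact count (sumCC) to 702, also the largest of the 501. The merged right side reached to 58010000 and thereby also covered the start of SRSF1, so the summed value is not that of VEZF1 alone. In the list as a whole this interaction ranked 249 by contact count and 45 by sumCC. The MRPS23 bin had 2 HLF motifs and was in 31 listed interactions, whereas the VEZF1 bin had none and was in this one only.

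The next was PPIA with H2AZ2 on chromosome 7, with 72 read pairs (56.3 to 90.7) at 50 kb. PPIA encodes cyclophilin A and H2AZ2 a histone variant of the H2A.Z type. Here the H2AZ2 bin was the busier one, with 17 listed interactions and 1 HLF motif, and the PPIA bin was in no other. The smallest P value of the interaction caller, which tests a contact count against the background for its distance and the coverage of its bins, was 7.0e-45 and belonged to ANKRD22, an ankyrin repeat gene, with ACTA2, the smooth muscle actin gene, on chromosome 10 (contact count 68, 52.8 to 86.2; 100 kb). Neither of these bins had an HLF motif.

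The other 7 of the 10 largest contact counts lay between 55 and 63. ZFYVE9, whose product presents SMAD proteins to the TGF-beta receptor, reached a start of CC2D1B with 63 (48.4 to 80.6) at 220 kb, from a bin with 29 listed interactions and 2 HLF motifs. The bin that holds starts of NFE2, a bZIP factor of erythroid cells and megakaryocytes, and of COPZ1, a coatomer subunit, reached GPR84, a fatty acid receptor of myeloid cells, with 59 (44.9 to 76.1) at 60 kb. ITIH1 and MUSTN1 had 58 at 55 kb. The neighbors VNN1 and VNN2, both pantetheinase genes, had 56 at 50 kb. A start of ASIP, the agouti signalling protein gene, had 2 of the 10, with 59 to a start of AHCY at 120 kb and 57 to DYNLRB1, a dynein light chain gene, at 325 kb. The last of the 10 was on chromosome X, where starts of ZNF185 and ATP2B3, a plasma membrane calcium pump gene, had 55 (41.4 to 71.6) at 595 kb with 12 protein-coding genes between them, against a median of 23 at this distance. Of these 10 pairs, 4 had Ensembl canonical start sites in both bins, 4 in 1 bin (ZFYVE9 with CC2D1B, ITIH1 with MUSTN1, ASIP with DYNLRB1, and VNN1 with VNN2), and 2 in neither (ASIP with AHCY, and ZNF185 with ATP2B3).

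By P value, MCL1 and CENATAC were added to these genes. MCL1, which blocks apoptosis, contacted a start of CERS2, a ceramide synthase gene, with 52 (38.8 to 68.2) at 400 kb. The MCL1 bin had 1 HLF motif and 7 listed interactions. CENATAC, a minor spliceosome component, contacted CCDC153 with 48 at 200 kb. By sumCC, ATP6V0A1 with NAGLU (327), FAM174B with CHD2 (294) and NLRP1 with PIMREG (143) were added. In the first 2 of these the count of the listed bin pair itself was 38 and 48. For NLRP1 with PIMREG it was 21, below the median of 23 at 865 kb.

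The farthest pair with 30 or more read pairs joined PI4KB, a lipid kinase gene, and PGLYRP4, a peptidoglycan recognition gene, across 2.02 Mb on chromosome 1 (count 30, 20.2 to 42.8). There were 65 protein-coding genes between them. MATN2 and COX6C were 1.96 Mb apart on chromosome 8 (count 40, 28.6 to 54.5), and NEU1, the lysosomal sialidase gene, and PHF1, a Polycomb-associated gene, were 1.55 Mb apart on chromosome 6 with 64 genes between them (count 36, 25.2 to 49.8). These counts were 1.43, 1.90 and 1.67 times the medians at their distances.

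Promoter-promoter interactions had a shorter median distance than interactions without a promoter bin. Their interval touched that of interactions with 1 promoter bin. Their median distance was 210 kb (185 to 235), against 245 kb (235 to 250) with 1 promoter bin and 255 kb (250 to 260) with none. A distance of at most 200 kb was seen in 48.9% (44.6 to 53.3), 43.9% (42.8 to 45.0) and 42.2% (41.7 to 42.7), and a distance over 1 Mb in 9.38% (7.13 to 12.3), 12.7% and 13.9% (13.6 to 14.2). Promoters themselves lie close together, so the number of listed interactions was set against all possible pairs of bins of each kind in the same distance range. Of every 10000 possible pairs of promoter bins from 50 kb to 100 kb apart, 29.9 (24.8 to 35.7) were listed, against 27.0 (25.7 to 28.3) with 1 promoter bin and 15.2 (14.9 to 15.5) with none. From 200 to 500 kb the values were 6.86 (5.77 to 8.11), 6.21 (5.94 to 6.48) and 3.74 (3.67 to 3.80), and over 1 Mb 0.463 (0.340 to 0.616), 0.418 (0.392 to 0.446) and 0.281 (0.274 to 0.288). In each of the 5 distance ranges the intervals of promoter-promoter pairs and of pairs with 1 promoter bin overlapped, and both lay above that of pairs without a promoter. Many of these possible pairs were not tested by the caller, which needs a TCF3::HLF peak in a bin, and the part of peak density in these values was not tested.

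**Figure D2:**
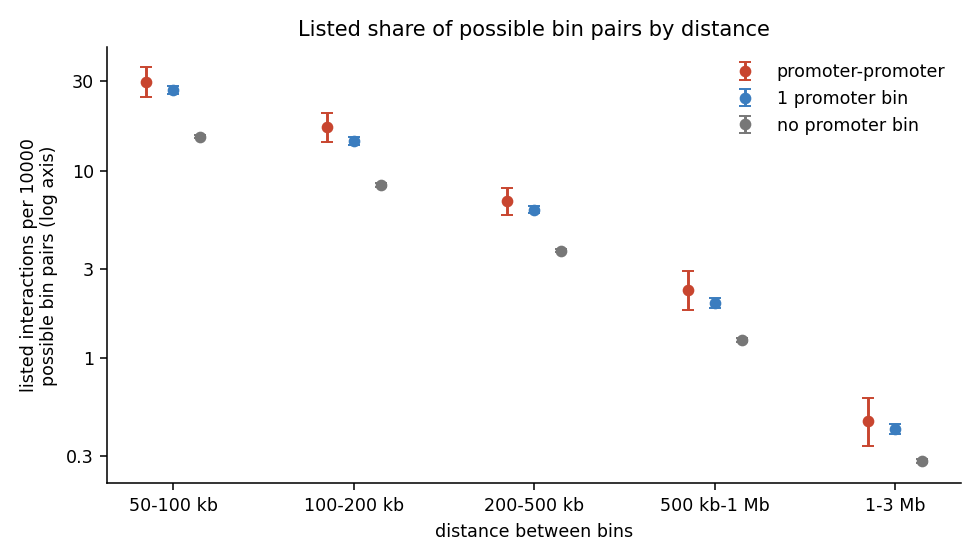
Listed interactions per 10000 possible bin pairs (log axis) in 5 ranges of distance, for pairs of promoter bins, pairs with 1 promoter bin and pairs with none. Bars are exact Poisson 95% intervals. The promoter-promoter points fall from 29.9 in the nearest range to 0.463 in the farthest and stay close to those with 1 promoter bin.

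The ends of a promoter-promoter interaction were unequal. In 487 of the 501 the 2 bins differed in the number of listed interactions in which they took part. The busier bin had a median of 6 (maximum 31) and its partner a median of 1 (maximum 11). The busier bin is the one with more by definition, so some difference between these medians follows from the split. A bin that was in no other listed interaction was found in 412 of 501 (82.2%; 78.6 to 85.3). This share was not computed for the other classes of interactions. In 1 interaction only were both bins in 10 or more. The busier bin had a median of 7 listed interactions in those with 1 promoter bin and also in those with none. Counted by bin, 421 of the 840 bins of promoter-promoter interactions were in a single listed interaction, and so were 38651 of 49352 listed bins without a start site. The caller needs a TCF3::HLF peak in a bin, and the part of this in the inequality was not tested. The HLF motif followed the split into busier bin and partner. It was in 232 of the 487 busier bins (47.6%; 43.2 to 52.1) and in 78 of their 487 partners (16.0%; 13.0 to 19.5). In 188 the motif was in the busier bin only, and in 34 it was in the partner only. The G+C content was nearly the same on both sides, with medians of 48.0% (47.3 to 48.4) and 48.7% (47.9 to 49.5). The share with a motif in the busier bin was 33.6% (26.5 to 41.5) where that bin had 2 to 4 listed interactions, 47.1% (40.3 to 53.9) with 5 to 9 and 64.2% (55.8 to 71.8) with 10 or more.

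This gradient was not particular to promoter-promoter interactions. Counted once each, 43 of 68 promoter bins of these interactions with 10 or more listed interactions had a motif (63.2%; 51.4 to 73.7), and so had 64.6% (50.4 to 76.6) of 48 other promoter bins and 67.0% (64.1 to 69.9) of 1010 bins without a start site. At the other end, among bins in a single listed interaction, the motif was in 16.4% (13.2 to 20.2) of 421 promoter bins of promoter-promoter interactions, in 22.7% (21.1 to 24.3) of 2673 other promoter bins and in 29.0% (28.6 to 29.5) of 38651 bins without a start site. Their median G+C contents were 48.8%, 46.8% and 40.7%, and the part of base composition in this order was not tested. In promoter bins outside every listed interaction the motif was in 21.1% (20.6 to 21.5). The share of interactions with a motif in at least 1 bin was accordingly 54.5% (50.1 to 58.8) for promoter-promoter interactions, 64.3% (63.2 to 65.4) with 1 promoter bin and 67.4% (66.9 to 67.8) with none.

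Within equal G+C content the promoter bins could be compared more closely. All 31912 promoter bins were split into 4 equal classes by G+C. In the third class (47.4% to 53.1%), the motif was in 28.3% (23.1 to 34.2) of the bins of promoter-promoter interactions, in 20.7% (18.1 to 23.6) of other listed promoter bins and in 14.9% (14.1 to 15.8) of unlisted ones. In the class richest in G+C it was in 15.4% (11.2 to 20.7), 11.1% (8.96 to 13.6) and 6.80% (6.24 to 7.41). In the class poorest in G+C it was in 46.7% (38.9 to 54.6), 39.0% (35.7 to 42.3) and 37.8% (36.7 to 39.0). In the remaining class it was in 27.5% (22.0 to 33.8), 29.8% (27.0 to 32.7) and 24.9% (23.9 to 25.9). The intervals of promoter-promoter bins and of other listed promoter bins overlapped in all 4 classes. Those of promoter-promoter bins and unlisted bins overlapped in the poorest and the remaining class. The shares were not split by the number of listed interactions of a bin, with which the motif share rose. Listing needs a TCF3::HLF peak in a bin, and the part of this in these shares was not tested. Other motifs were searched in the same bins but not split by G+C, and not all of them are given here. The median G+C was 48.4% in bins of promoter-promoter interactions and 47.4% in all promoter bins. The ETS motif CCGGAAGT was in 9.64% (7.83 to 11.8) of the bins of promoter-promoter interactions and in 7.34% of all promoter bins, the NF-Y motif CCAATCAG in 18.6% (16.1 to 21.3) and 14.4%, and the SP1 motif GGGGCGGGG in 37.4% (34.2 to 40.7) and 31.5%. The AP-1 motif TGACTCA, another bZIP sequence, was in 53.8% (50.4 to 57.2) and 51.9%. A CTCF core motif was in 3.10% (2.12 to 4.50) of these bins and 3.32% of all promoter bins. CTCF core motifs that point toward each other in the 2 bins were rare throughout, in 32 of 49245 listed interactions (0.0650%) and in 0 of 501 promoter-promoter interactions (Wilson upper limit, 0.761%), so a difference was not detectable at this number. Near-identical sequence in the 2 bins, measured as 500 or more shared 31-mers, was likewise rare, in 0 of the 501 and in 13 of all listed interactions.

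Most gene starts were in few promoter-promoter interactions. Of the 840 bins, 725 were in 1, 81 in 2 and 34 in 3 or more, and these 840 made up 2.63% of all 31912 promoter bins. Linked through shared bins, the 501 interactions formed 340 separate groups, of which 234 were a single pair, 70 had 3 bins, 25 had 4, and the largest had 8. In no group did 3 bins all contact each other (0 triangles). Instead, several partners met at a single bin. The list had been reduced by the merging of neighboring bin pairs, which also lowers these numbers, and the size of that effect was not tested. The caller also needs a TCF3::HLF peak in a bin, so 2 partners without a peak could not be joined. The part of this requirement in the shape of the groups was not tested.

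A total of 3 bins met 5 other promoters each. The TLCD3B bin on chromosome 16, without an HLF motif, reached ZNF785 with 37, SEPTIN1 with 24, PRRT2 with 22, KCTD13 with 21 and TMEM219 with 20. The bin shared by PLEKHJ1 and SF3A2, a subunit of the splicing factor SF3a, was on chromosome 19, with the core promoter motif shown above. Its partners, all within 220 kb, were the bins of LSM7 and SPPL2B (48), AP3D1 and DOT1L (37), TIMM13 (36), LMNB2 (28) and TMPRSS9 (18). DOT1L is the methyltransferase of histone H3 lysine 79 and LMNB2 is lamin B2. The CCL25 bin, at a chemokine gene of the thymus and gut, also on chromosome 19, had 1 HLF motif and reached FBN3 with 52, CTXN1 with 34, the splicing protein gene HNRNPM with 30, CD320 with 28 and the RNA-binding protein gene ELAVL1 with 22.

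Of the bins with 4 promoter partners, that of STAT3, a transcription factor downstream of cytokine receptors, reached MLX (30), NT5C3B (20), DNAJC7 (20) and the bin of RETREG3 and TUBG1 (14). Only 70 kb away, the bin of ATP6V0A1, a proton pump subunit gene, reached NAGLU (38), PSMC3IP (30), HCRT (26) and, across 2400 kb and 70 genes, EFTUD2 (28). The STAT3 and ATP6V0A1 bins shared no promoter partner, and neither had an HLF motif. The ARMC8 bin on chromosome 3, which had 2 HLF motifs and 22 listed interactions, reached DBR1 (37), MRAS (36), ESYT3 (34) and PIK3CB (26), a catalytic subunit gene of PI3K. The BSDC1 bin on chromosome 1 reached the bin of DCDC2B and IQCC (42), MARCKSL1 (27), the bin of S100PBP and YARS1 (27) and TXLNA (20). MNDA, described above, and the neighbors MRPS23 and SRSF1 also had 4 each.

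MRPS23 and SRSF1 had the most partners in the largest group, with 8 bins and 8 interactions over 670 kb of chromosome 17. SRSF1 encodes a splicing factor of the SR family. From the MRPS23 bin, contact counts were 77 to VEZF1, 28 to CUEDC1 at 50 kb, 22 to MTMR4 at 665 kb and 16 to EPX, the eosinophil peroxidase gene, at 340 kb. From the SRSF1 bin they were 39 to the bin of LPO and MKS1 at 210 kb, 34 and 23 to a pair of CUEDC1 starts at 120 and 105 kb, and 21 to EPX at 185 kb. A CUEDC1 bin and the EPX bin were contacted from both of these bins, and the list has no row of its own for the MRPS23 and SRSF1 bins. The merged MRPS23 and VEZF1 row covers the SRSF1 bin, so a contact between MRPS23 and SRSF1 may be held in that row. The MRPS23 bin and the CUEDC1 bin that it reached had HLF motifs, and the other 6 bins had none. Chromosome 17 is a partner in the translocation, and positions are those of the reference and not of the rearranged chromosome.

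**Figure D3:**
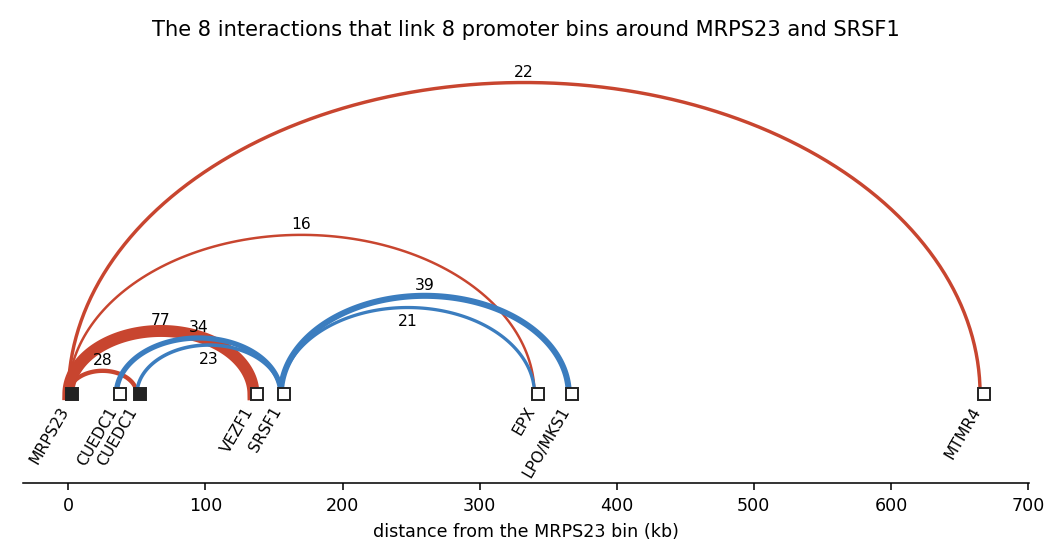
The 8 promoter-promoter interactions of the largest linked group, drawn as arcs over the distance from the MRPS23 bin (kb), with contact counts as numbers and as line width. Arcs from MRPS23 are red and arcs from SRSF1 are blue, and filled squares are bins with an HLF motif. The thickest arc, with a count of 77, runs from MRPS23 to VEZF1.

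Between the 2 bins of an interaction lay a median of 2 protein-coding genes (maximum 70). In 101 of 501 (20.2%; 16.9 to 23.9) there was none between, and in 83 (16.6%; 13.6 to 20.1) there were over 10. For 428 interactions each bin had starts on a single strand. Of these, 223 (52.1%; 47.4 to 56.8) ran in tandem, 108 (25.2%; 21.4 to 29.6) pointed toward each other and 97 (22.7%; 19.0 to 26.9) pointed apart. The same shares over all possible promoter pairs were not computed, so no preference for an orientation can be read from these. In 12 (2.40%; 1.38 to 4.14), genes at both ends shared a symbol stem, the letters before the first digit. Families with short stems, such as OR, or with differing stems, such as PCDHA and PCDHB, were not matched. The 12 included VNN1 with VNN2, the tubulin genes TUBA1B and TUBA1A (47 at 55 kb), ZNF45 with ZNF230 (30), PCDHB2 with PCDHB6 (16), SIGLEC7 with SIGLEC6 (19), and 4 pairs of keratin-associated protein genes (28 to 35). In another 5 (0.998%) both bins lay within 1 protein-coding gene, as for ERCC1, a DNA repair gene whose body holds the FOSB start that it contacted (35 at 55 kb). By chromosome, promoter-promoter interactions made up 5.60% (38 of 678) of the list on chromosome 19, 3.49% (28 of 803) on 22 and 2.64% (50 of 1897) on 17, and the smallest share was 0.202% (4 of 1978) on chromosome 13. Chromosome 19 has 2133 promoter bins and chromosome 13 has 514.

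The 905 genes made up 4.61% of the 19626 protein-coding genes on chromosomes 1 to 22 and X. A start site in any listed bin was found for 3862 genes (19.7%). Gene lists were read against these 2 shares as a description, with no test. Genes of the promoter-promoter interactions had 2.25 promoter bins each on average and all protein-coding genes 1.74, so genes with many alternative starts had more chances to be counted. Of the 62 chromatin regulators, 13 were among the 905 (21.0%; 12.7 to 32.6), and 30 (48.4%) had a start in any listed bin. They had 3.10 promoter bins per gene. With canonical starts at both ends, 5 of the 62 (8.06%) were left, against 414 (2.11%) of all genes. DOT1L had the largest count of this list (37). KDM6B, a histone H3 lysine 27 demethylase, reached KCTD11 with 30 at 485 kb and CHD3, a chromatin remodeller, with 15 at 50 kb. MEN1, the menin gene, reached BATF2, a bZIP gene, with 29 at 180 kb. EZH1, a Polycomb methyltransferase, reached JUP with 27 at 960 kb. The acetyltransferases EP300 and CREBBP were each in 1 interaction, with 16 and 14.

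Of 28 apoptosis and p53 genes, 4 were included (14.3%; 5.70 to 31.5). They included MCL1, BID, a pro-apoptotic BCL2 family member that SLC25A18 reached with 36 at 210 kb, and DIABLO, an inhibitor of the apoptosis inhibitors, with MLXIP (32 at 100 kb). Splicing factors had 7 of 52 (13.5%; 6.68 to 25.3), with SF3A2 (48), SRSF1 (39), SF3A1 with TBC1D10A (39 at 50 kb) and SF3B3 with ST3GAL2 (37 at 85 kb) the largest. In this list 5 (9.62%) were left with canonical starts at both ends, and there were 1.58 promoter bins per gene, fewer than over all genes. Of 48 bZIP factors, the class to which HLF belongs, 6 were included (12.5%; 5.86 to 24.7). NFE2 had the largest count (59), followed by FOSB, FOSL2 with the bin of BABAM2 and RBKS (34 at 505 kb) and BATF2, and ATF4 (20) and XBP1 (18) had the smallest. With canonical starts at both ends, 1 of the 48 was left.

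The lists closest to the leukemia were not large. Of 36 regulators of hematopoietic stem and progenitor cells, 3 were included (8.33%; 2.87 to 21.8), among them NFE2 and SMAD3 with C15orf61 (15 at 425 kb). Of 35 B-lineage regulators and receptor genes, 13 (37.1%) had a start in a listed bin and 0 were in a promoter-promoter interaction, with a Wilson upper limit of 9.89%. The cell cycle list had 2 of 31 (6.45%), which were CCND3, the cyclin D3 gene, with TFEB (30 at 315 kb) and CDK2 with the bin of ORMDL2 and SARNP (17 at 150 kb). The JAK-STAT, NF-kB and interferon list had 2 of 43 (4.65%), STAT3 and IRF2. The PI3K, mTOR and RAS-MAPK list had 3 of 39 (7.69%), with PIK3CB, DUSP1 with ERGIC1 (26 at 60 kb) and SPRY2 with EDNRB (25 at 2435 kb). Chromosome architecture had 2 of 31 (6.45%), which were STAG2, a cohesin subunit gene, with SH2D1A (39 at 375 kb on chromosome X), and MED15, a Mediator subunit gene, with ZNF74 (30).

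Families in genomic clusters varied around the share of all genes. Olfactory receptors had 9 of 381 (2.36%; 1.25 to 4.43), and among them OR52E6 (46) and OR52N5 (32) were contacted from the bin of TRIM22 and TRIM5, antiviral genes, which had 3 HLF motifs, and OR5D18 had 31 and OR6P1 26. Genes named ZNF had 16 of 508 (3.15%; 1.95 to 5.05), led by ZNF185, ZNF804B with CLDN12 (38 at 1185 kb), ZNF785 and ZNF230. Keratins and keratin-associated proteins had 7 of 149 (4.70%), with KRTAP4-16 the center of 3 contacts (35, 34 and 29), to KRTAP1-1, KRTAP16-1 and KRTAP9-2. Clustered protocadherins had 4 of 53 (7.55%), of which PCDHA2 reached TAF7 with 25 and PCDHB8 with 21. Replication-dependent histones had 3 of 69 (4.35%), all in 1 contact of H3C6 with the bin of H2BC10 and H3C8 (23 at 50 kb). HOX genes had 0 of 39, with a Wilson upper limit of 8.97%. Cytosolic ribosomal proteins had 1 of 86 (1.16%; 0.206 to 6.30), RPS14 with NDST1 (28 at 50 kb), although 22 (25.6%) had a start in a listed bin. Mitochondrial ribosomal proteins had 2 of 78 (2.56%), MRPS23 and MRPS34, the latter with CLCN7 (27 at 300 kb). Solute carriers had 18 of 367 (4.90%), led by SLC18B1 with VNN1 (46 at 85 kb), SLC25A18, SLC38A9 with IL31RA (36 at 145 kb) and SLC11A1 with PNKD (33 at 60 kb). Of genes of other tissues, liver and plasma proteins had 2 of 36 (5.56%), TTR with B4GALT6 (38 at 125 kb) and F11 with CYP4V2 (24 at 95 kb), and synaptic and neuronal adhesion genes had 2 of 53 (3.77%), DLG1 with RNF168 (14 at 680 kb) and NCAM1 with TTC12 (13 at 55 kb).

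The number of promoter-promoter interactions depended strongly on which start sites were counted. In 214 of the 501 (42.7%; 38.5 to 47.1) both bins held the Ensembl canonical start of a gene, in 225 (44.9%) 1 bin did, and in 62 (12.4%) neither did. The median contact count was 26 (24 to 27), 24 (22 to 25) and 23 (20 to 25) in these 3 groups, and relative to all interactions at the same distance it was 1.05 (1 to 1.13), 1 (0.92 to 1.04) and 0.922 (0.826 to 1.11).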

How the data were processed

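The values come from HiChIP of TCF3::HLF in 2 biological replicates of HAL-01 cells without wild-type TCF3. Per the methods, the authors trimmed reads (Trim Galore 0.6.6), merged the replicates, aligned them to hg38 with BWA-MEM, extracted pairs with pairtools without dedup, called peaks with MACS2 and called interactions with FitHiChIP (version not given in the sources used here) between 5-kb bins 50 kb to 3 Mb apart. The deposited list holds contact counts, which were not normalized, the sumCC of merged neighboring bin pairs, the p-value and q-value (under 0.01) of each interaction, and a fraction that gives the significant share of each merged group, not used for a result. The depth of each replicate is unknown here, since the list holds significant interactions of the merged data only.

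Start sites were taken from GENCODE 44, and 0 bins lay past the end of an hg38 chromosome. Motifs were exact matches on both strands of hg38. RefSeq promoter sequences (GRCh38.p14), matched by gene symbol for 15277 genes, equalled hg38 in all cases. Shares have Wilson 95% intervals, contact counts and rates exact Poisson intervals, and medians intervals from binomial order statistics. For the ratio at equal distance, neighboring 5-kb steps were pooled until 50 interactions. With a single condition no test was made. The steps were tested on simulated data. Interactions were named by rule: the 10 largest by contact count and the 10 smallest by P value, the 5 largest by sumCC and by ratio, the 3 farthest with 30 or more read pairs, the 10 bins with most promoter partners and up to 4 genes of each list, of which some are not reported here. Motif windows were printed for the 6 largest counts with motifs in both bins, outside chromosome 8. Outside this rule, the core promoter set, the chromatin and bZIP genes beyond the first 4, and the pairs of gene families were chosen after their values were seen. The members, lists and rules were chosen with earlier results of these data known. Alternatives were a q-value under 1e-05, counts of 20 or more, a limit of 1 Mb, canonical start sites, start sites within 10 kb, no near-identical bins, no chromosomes 17 and 19 and, chosen after seeing the data, 1 interaction per merged group. The tools were samtools 1.23.1, pyfaidx 0.9.0.4 and networkx 3.6.1, with scipy 1.17.1 for intervals, pandas 2.3.3 and numpy 2.4.6 for the joins and matplotlib 3.10.9 for plots, under Python 3.11.15.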

Additional observations from a re-analysis of the deposited data

How the results depend on the processing

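The choice of start sites moved the number of interactions most. In the main setting, 3.07 (2.80 to 3.35) promoter-promoter interactions were listed per 10000 possible pairs. With canonical start sites only, 214 interactions were left (0.435% of the list), all of them among the 501, with a median contact count of 26, a ratio at equal distance of 1.05, 2.11% of genes and 3.72 listed per 10000 possible pairs. With start sites within 10 kb of a bin there were 4963 (10.1%), including 500 of the 501, with an HLF motif in 60.3%, 30.7% of genes and 2.56 per 10000. With a q-value under 1e-05 or a contact count of at least 20, the median count was 28 in both cases, the share of genes 3.35% and 3.42%, and the rate 2.10 and 2.17 per 10000. A lower limit on the count raises the median count by construction. Up to 1 Mb, the share of genes was 4.23% and the rate 7.33, over 619083 possible pairs instead of 1634345. Without chromosomes 17 and 19, the share of the list was 0.885% and the rate 3.40. The median distance stayed within its interval under every alternative. Leaving out near-identical bins or counting 1 interaction per merged group, the latter chosen after seeing the data, moved none of the 8 results beyond its interval. Only the merged list of a single condition was used here, so leaving out a replicate was not possible. No paired analysis was possible because both replicates were merged into 1 list. Contact counts near 24 carry wide counting intervals, which limits any ranking among most of the 501.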
